A study of Mus musculus with 4 samples.

Results

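C1q macrophages were the tumour macrophages that carried transcripts of the 3 genes of complement component C1q, C1qa, C1qb and C1qc. They were selected on measured C1q UMIs among the cells that the authors' table of cells annotated as MoMacDC, the class of monocytes, macrophages and dendritic cells. A UMI is a molecular tag that counts 1 captured transcript. A cell was taken when it held at least 3 C1q transcripts, when these made up at least 0.5% of its transcripts, and when it held fewer than 3 transcripts of Fscn1, Ccr7, Ccl22 and Cacnb3, which mark mature dendritic cells. This gave 1527 C1q macrophages, 52.4% of the 2914 MoMacDC cells, out of 4440 cells in all. The other 1387 MoMacDC cells served for comparison.

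All cells came from MC38 tumours, a mouse colon carcinoma line grown for 7 days in the flank of mice carrying the IL-12p40-IRES-EYFP transgene, a reporter that marks cells making the p40 chain of interleukin-12; untreated mice carried it too. The agonist anti-CD40 antibody was given into the peritoneum at 5 mg/kg, and tumours were taken 2 days later. CD45+ cells, that is blood-derived cells, were sorted with the dead-cell dye 7AAD and sequenced by inDrops, a droplet method with UMIs. There was 1 untreated tumour, which received no control antibody per the labels, and there were 2 treated tumours, here anti-CD40 tumours 1 and 2. The sources used here do not give the age and sex of the mice.

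C1q starts the classical complement pathway when it binds immune complexes or dying cells, and macrophages are its main source in tissue. In tumours, C1q-expressing macrophages are known for uptake of dead cells, lysosomal digestion and antigen presentation, and they are usually told apart from freshly arrived Ly6c2-positive monocytes. CD40 is a receptor of the tumour necrosis factor family on macrophages, dendritic cells and B cells; its ligand is supplied by activated T cells, and an agonist antibody replaces that signal.

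The untreated tumour gave 362601 UMIs of C1q macrophages (665 cells), against 130011 in anti-CD40 tumour 1 (109 cells) and 842639 in anti-CD40 tumour 2 (753 cells). Median depth was 478, 1008 and 990 UMIs per cell, and a median of 347, 615 and 589 genes was detected. Each tumour was spread over 4 libraries, and the 12 libraries over 4 sequencing pools: the untreated tumour and tumour 1 were in pools 1 and 2, tumour 2 in pools 3 and 4. No cell barcode was shared between libraries (0 of all barcodes). Within a pool, treatment could therefore be compared for tumour 1 alone.

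C1q macrophages were less frequent among MoMacDC cells in anti-CD40 tumour 1 than in the untreated tumour, whereas in anti-CD40 tumour 2 the interval of the share overlapped the untreated one at the depth as sequenced, but not at equal depth. Among untreated MoMacDC cells the share was 58.5% (95% Clopper-Pearson interval 55.6 to 61.4, 665 of 1136). It was 24.3% (20.4 to 28.6, 109 of 448) in tumour 1 and 56.6% (53.9 to 59.3, 753 of 1330) in tumour 2. The intervals cover counting error only. Over libraries the share ran from 55.1% to 66.5% untreated, from 21.3% to 27.5% in tumour 1 and from 53.5% to 60.5% in tumour 2. Libraries of tumour 1 lay below all others, and those of tumour 2 overlapped the untreated libraries. Within pool 1 the share was 55.8% untreated and 24.5% in tumour 1, and within pool 2 it was 62.0% and 24.2%. Since the treated tumours differed from each other by more than tumour 2 differed from the untreated tumour, no change with treatment was read from the share, and the share was not tested across the 3 tumours.

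**Figure D1:**
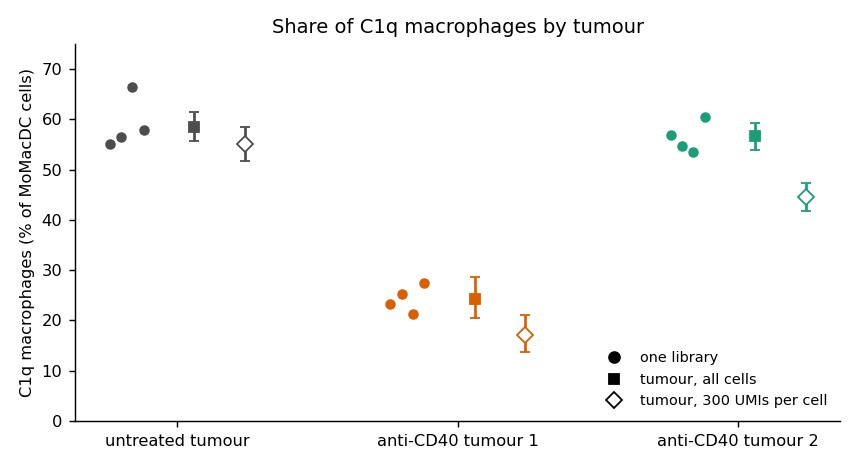
Share of C1q macrophages among MoMacDC cells, in percent: circles are libraries, squares are tumours and open diamonds are tumours after every cell was thinned to 300 UMIs, both with 95% Clopper-Pearson intervals. The 4 libraries of anti-CD40 tumour 1 (21.3% to 27.5%) lie below the other 8 libraries.

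Depth differed between the tumours. With every cell thinned to 300 UMIs before selection, it was 55.1% (51.7 to 58.5) untreated, 17.2% in tumour 1 and 44.5% (41.7 to 47.3) in tumour 2, so that at equal depth tumour 2 also lay below the untreated tumour. C1q transcripts were also found in T cells, which should lack them: 18.0% of T cells had a C1q UMI in the untreated tumour, 2.08% in tumour 1 and 3.70% in tumour 2, at median depths of 475.5, 778 and 651 UMIs. Of T cells, 14 of 150, 0 of 48 and 1 of 135 would have met the C1q macrophage criteria. Free RNA and doublets can both place C1q transcripts in T cells; neither was measured, and their part in the share was not tested.

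The C1q genes chose the cells, so their levels are given as a description. The 3 genes lie side by side on chromosome 4 (GRCm38: C1qb 136880129 to 136886187, C1qc 136889804 to 136893065, C1qa 136895917 to 136898803, all on the minus strand). Summed over the cells of a tumour, the 3 genes stood at 18367, 10238 and 15271 CPM (UMIs of a gene per 1000000 UMIs of the summed cells) in the untreated tumour, tumour 1 and tumour 2. The other MoMacDC cells held 1539, 616 and 1268 CPM, and T cells 1515, 46.2 and 74.8 CPM. T cells of the untreated tumour thus had a C1q level as high as the other MoMacDC cells of that tumour. Neutrophils held 85.2, 8.42 and 34.8 CPM. C1qa supplied 42.9%, 38.0% and 35.1% of the C1q UMIs of C1q macrophages, C1qb 29.4%, 40.7% and 37.2%, and C1qc 27.7%, 21.3% and 27.7%.

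Around the threshold the levels of Apoe and Ms4a7 changed by degrees. Of the MoMacDC cells, 1676 held 3 or more C1q UMIs; 143 of them missed the 0.5% share, 3 held mature dendritic cell transcripts and 3 failed on both counts. Another 361 cells held 1 or 2 C1q UMIs and 877 held none. The 122 C1q macrophages with exactly 3 UMIs had Apoe at 5825 CPM and Ms4a7 at 348 CPM, against 3045 and 175 CPM in the 176 cells with exactly 2 and 1471 and 60.5 CPM in the 877 cells with 0. The monocyte gene Plac8 ran the other way, at 279, 1197 and 2408 CPM, and Ly6c2 stood at 0, 574 and 791 CPM. These groups pool all tumours, and their median depths were 335.5, 389.5 and 647 UMIs.

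Against the other MoMacDC cells, C1q macrophages were richer in genes of settled tissue macrophages, of lysosomal digestion and of dead-cell uptake, and poorer in genes of monocytes. Genes of mature dendritic cells were lower too, but the selection kept such cells out by construction. Apoe, Ms4a7, Mrc1, Lgmn and Grn were higher in C1q macrophages of all 3 tumours, and Plac8, Ly6c2 and Chil3 were lower. Of 5872 genes tested with the tumour as a block, 63 were higher (1.07%) and 91 lower (1.55%), 154 in all (2.62%), at an edgeR adjusted p below 0.05. The 7 genes used for selection were kept out of this test. Without the other cells that held mature dendritic cell transcripts, 40 genes were higher and 29 lower.

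Apoe (chromosome 7, 19696109 to 19699188), the lipid carrier of macrophages, stood at 7537, 3154 and 6378 CPM in C1q macrophages of the untreated tumour, tumour 1 and tumour 2, and at 2672, 573 and 2460 CPM in the other MoMacDC cells. It was higher in C1q macrophages of every tumour, by a log2 fold change of 1.82 ± 0.20 (SE; 3 tumours; edgeR adjusted p = 0.000183). Ms4a7 (chromosome 19, 11321039 to 11336146), a membrane gene of macrophages and the label's marker that the selection did not use, stood at 477, 108 and 309 CPM against 178, 17.2 and 91.5 CPM (1.79 ± 0.24, edgeR adjusted p = 0.000325). Ms4a7 lay outside the rule but came with the label, and the members were chosen with earlier results of these data known. Its difference is therefore not independent support for the label. Mrc1 (chromosome 2, 14229392 to 14332057), the mannose receptor of scavenging macrophages, stood at 339, 84.6 and 147 CPM against 101, 21.5 and 53.9 CPM, which is 1.69 ± 0.23 (edgeR adjusted p = 0.00041).

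Of the list of tissue macrophage identity genes, 23 of 25 were tested; 8 were higher and 0 lower, with a median log2 difference of 0.78 beside 0.01 over all genes. Those that passed were Apoe, Mrc1, Lgmn, Pf4, Cx3cr1, Trem2, Tmem119 and Fcrls. The chemokine gene Pf4 stood at 210, 315 and 348 CPM against 82.0, 60.1 and 147 CPM (1.65 ± 0.24). The fractalkine receptor gene Cx3cr1 stood at 353, 100 and 191 CPM against 169, 40.8 and 62.1 CPM (1.39 ± 0.22). For Trem2, a lipid-sensing receptor, the values were 265, 76.9 and 205 CPM against 140, 19.3 and 105 CPM (1.12 ± 0.23). Widely shared macrophage genes did not pass: Csf1r, for the receptor of the macrophage growth factor, was at 0.40 ± 0.16 (edgeR adjusted p = 0.26), Adgre1, for F4/80, at 0.78 ± 0.23 (0.096) and Mertk at 0.88 ± 0.24 (0.071).

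**Figure D2:**
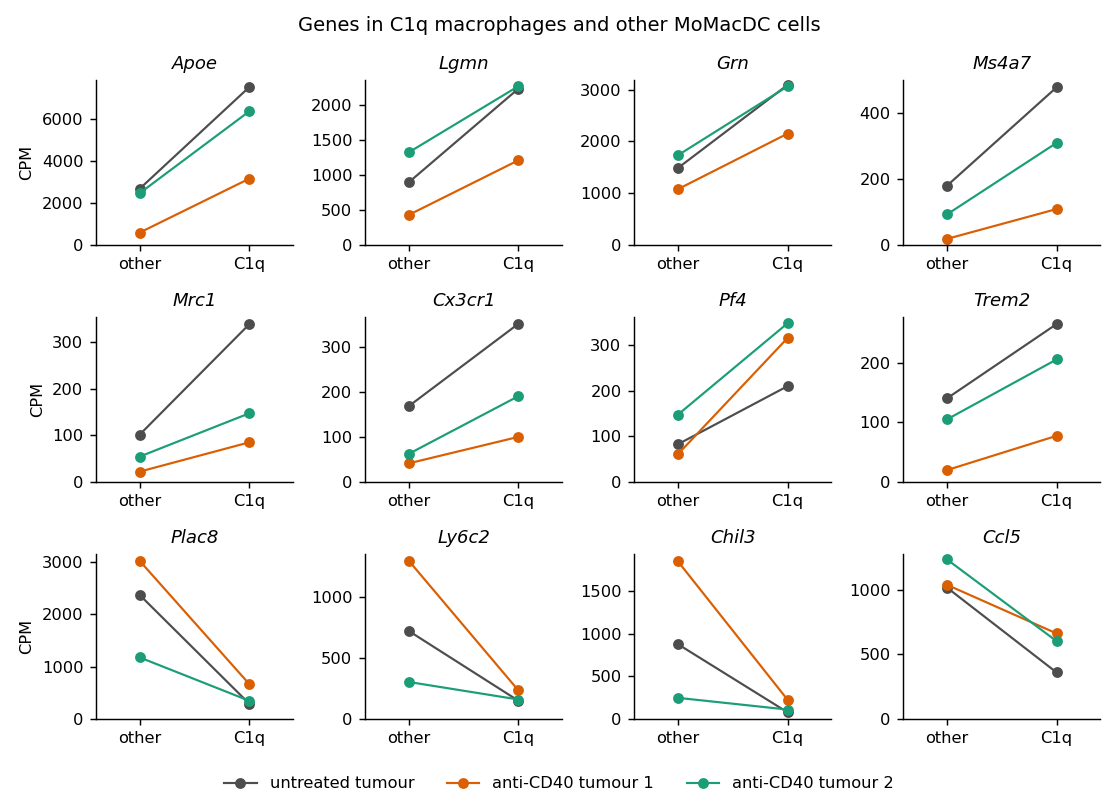
Levels of 12 genes in CPM (linear axes from 0, scaled per gene) in the other MoMacDC cells and in C1q macrophages; points are tumours and lines join both sides of a tumour. Apoe, Lgmn, Grn, Ms4a7, Mrc1, Cx3cr1, Pf4 and Trem2 lie higher in C1q macrophages of all 3 tumours, and Plac8, Ly6c2, Chil3 and Ccl5 lie lower.

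Lysosomal genes followed the same side. Of 25 tested, 5 were higher and 1 lower, with a median of 0.48. Lgmn, for the asparaginyl protease legumain, stood at 2234, 1208 and 2269 CPM against 892, 425 and 1321 CPM (1.24 ± 0.17, edgeR adjusted p = 0.00041). Grn, for progranulin, stood at 3089, 2146 and 3061 CPM against 1481, 1071 and 1728 CPM (1.02 ± 0.15); its exons overlap Fam171a2 on the other strand. Both genes were higher in C1q macrophages of every tumour. The cathepsin genes Ctsl, Ctsd and Ctss were higher by 0.93 ± 0.19, 0.76 ± 0.18 and 0.70 ± 0.15, and exons of Ctsd overlap Gm49369. Cst3, for the protease inhibitor cystatin C, was lower, at -0.93 ± 0.14.

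In the list of receptors and bridges of dead-cell uptake, 4 of 13 tested were higher and 0 lower, with a median of 0.48. These were Stab1 (1.65 ± 0.24), a receptor of phosphatidylserine whose exons overlap Nt5dc2 on the other strand, Itgb5 (1.58 ± 0.24), an integrin chain, Axl (0.95 ± 0.23), a receptor kinase, and C3ar1 (0.92 ± 0.21). C3ar1 was a member of the list but is the receptor of complement fragment C3a, not itself an uptake receptor. Among the other complement genes, 1 of 9 tested passed, again C3ar1; the genes of C3 (0.14 ± 0.21), factor B (0.41 ± 0.20) and properdin (0.53 ± 0.18) did not. The Fc gamma receptor gene Fcgr3 was higher by 0.75 ± 0.19, the only call among 5 tested. None of the 8 tested genes of MHC class II antigen presentation passed with edgeR (0 higher, 0 lower, 6 at an unadjusted p below 0.05), and their median was 0.63.

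Further genes higher in C1q macrophages included Ccl8, a chemokine gene, at 110, 23.1 and 28.5 CPM against 28.9, 0 and 6.53 CPM (2.26 ± 0.48), and Fcrls, an Fc receptor-like gene, at 251, 0 and 19.0 CPM against 48.2, 0 and 4.90 CPM (2.26 ± 0.40). Fcrls was at 0 on both sides in tumour 1, so its difference rests on the other tumours. Other genes with a large difference were Cbr2 (2.50 ± 0.61), Cd72 (2.29 ± 0.59), Slamf9 (2.10 ± 0.35), Htra3 (2.03 ± 0.33), Olfml3 (2.02 ± 0.40), Vcam1 (1.95 ± 0.36), Itga6 (1.94 ± 0.37), Tmem37 (1.78 ± 0.29), Rab11fip5 (1.77 ± 0.31), Rab3il1 (1.75 ± 0.31) and Trim47 (1.71 ± 0.43). Exons of Cd72 overlap Tesk1 on the other strand and those of Trim47 overlap Trim65, so their counts are uncertain.

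Monocyte genes were lower in C1q macrophages. Of 14 monocyte markers tested, 3 were lower and 0 higher, with a median of -1.03. Plac8 stood at 284, 661 and 342 CPM against 2373, 3028 and 1174 CPM (-2.26 ± 0.23, edgeR adjusted p = 8.64e-05), lower in every tumour. The monocyte gene Ly6c2 was at -1.78 ± 0.27 and Chil3, a chitinase-like gene, at -2.44 ± 0.44; both have near-identical relatives, so their counts are uncertain. Ace, a gene of patrolling monocytes, was at -3.16 ± 0.52.

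The selection barred mature dendritic cells from the C1q macrophages by construction, and 156 of the other MoMacDC cells held 3 or more of the 4 selecting transcripts. Among 8 tested markers of mature dendritic cells, 6 were lower and 0 higher. Adcy6 and Cd70 had 0 UMIs in C1q macrophages of all 3 tumours, at least 13.9-fold and 16.6-fold lower. Sema7a had 1, 0 and 1 UMIs in C1q macrophages, a ratio of summed levels of 0.00823 (95% counting interval 0.00099 to 0.0301). Cd200, Tbc1d4, Flt3, Serpinb6b, Apol7c, Slc27a3, Serpinb9, Spint2, Mmp25, Ly75 and Ramp3 were also among the largest negative differences, as was the reporter transcript eYFP, at 33.1, 7.69 and 0 CPM against 212, 187 and 152 CPM. Without those 156 cells, 69 genes were called (40 higher, 29 lower), 58 of them shared with the 154. Ace, Plac8, Ly6c2 and Chil3 still passed, and eYFP no longer did (-0.26, edgeR adjusted p = 0.95). Without the tumour as a block 0 genes were higher and 15 lower.

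In the C1q macrophages themselves, anti-CD40 went with higher levels of genes for heme breakdown, lipid handling, antioxidant defence and neutrophil-attracting chemokines, and with lower levels of genes of alternative activation and of the MHC class II regulator. Hmox1, Lpl, Nr1h3, Cd38, Fpr2 and Cxcl2 rose in both treated tumours, and Gatm, Fcrls, Mgl2, Mrc1 and Ciita fell. Of 5822 genes tested, 109 rose (1.87%) and 65 fell (1.12%), 174 in all (2.99%), by edgeR's quasi-likelihood test on the UMIs summed per tumour. Of the 174, 172 had the same sign in both treated tumours, all but Vcam1 and G0s2, and 164 kept it within pools 1 and 2, which are parts of the same sums. The 10 that did not were Vcam1, Tnfaip3, S100a8, Cd37, Dnase1l3, Seh1l, Nectin1, Ndrg1, Cxcr4 and G0s2; Tnfaip3, for example, stood at 85.3 CPM untreated and 17.1 CPM in tumour 1 within pool 1, and at 36.7 and 140.1 CPM within pool 2. Over all 5822 tested genes, called or not, 1785 were above the untreated tumour in both treated tumours and 2331 below it, each time against the same single untreated tumour.

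With 1 untreated tumour the fit had 1 residual degree of freedom and assumed that this tumour varied like the treated ones, so the p-values rest on a variance shared over genes and say little about other mice. DESeq2 called 17 genes, 16 higher and 1 lower, so of the 65 falls it called 1. Cells thinned to 300 UMIs gave 30 (21 higher and 9 lower, 28 of them shared). Without cells carrying markers of a second cell type there were 124 (111 shared). In that last setting Ftl1, Lyz2, Thbs1, Nos2, Itgam, Cxcl9, Cxcl10 and H2-DMb1 no longer passed. In sums over a tumour, fewer expressing cells and less RNA per cell cannot be told apart. Libraries are parts of the same tumours, so the library ranges given below are not ranges over mice. Untreated and treated libraries did not overlap for 95 of the 174 called genes, which the test had already picked. The share over all tested genes was not counted.

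Hmox1 (chromosome 8, 75093621 to 75100589), the enzyme that opens the heme ring and frees iron, stood at 152 CPM in C1q macrophages of the untreated tumour and at 1208 and 1965 CPM in anti-CD40 tumours 1 and 2. Its untreated libraries lay between 104 and 218 CPM and its treated libraries between 546 and 2455 CPM, without overlap. It rose by 3.49 ± 0.40 on the log2 scale (edgeR adjusted p = 8.83e-15), from 115 to 1449.8 CPM within pool 1 and from 196 to 1009 CPM within pool 2. In cells thinned to 300 UMIs, 3.84%, 23.1% and 31.8% held an Hmox1 UMI (5.71%, 50.5% and 54.3% before thinning), against 0.806%, 4.26% and 0% of thinned T cells.

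Of 10 iron-handling genes tested, 2 rose and 0 fell, with a median of 0.64 beside 0.01 over all genes: Hmox1 and Ftl1. Ftl1, for the light chain of the iron store ferritin, went from 2016 to 4784 and 5217 CPM (1.38 ± 0.37, edgeR adjusted p = 0.011), and untreated libraries (1724 to 2337 CPM) lay below treated ones (3522 to 5947 CPM). The heavy chain gene Fth1 stood at 13045, 20744 and 24617 CPM, a value of 0.87 ± 0.41 that did not pass (0.33).

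The list of genes of antioxidant defence and of the stress factor NRF2 held 7 that rose and 0 that fell among 17 tested, with a median of 1.34. Besides Hmox1 these were Gsr, Slc7a11, Prdx6, Sqstm1 (exons overlapping Mrnip on the other strand), Cd38 and Gdf15. Cd38 and Gdf15 were members of the list but are not antioxidant genes, and whether NRF2 drove any of these rises was not tested. Gsr, for glutathione reductase, went from 33.1 to 308 and 236 CPM (3.05 ± 0.48), and Slc7a11, for the cystine carrier, from 22.1 to 199.98 and 113 CPM (2.72 ± 0.53). Cd38 (chromosome 5, 43868553 to 43912375), a surface enzyme that degrades NAD, went from 16.5 to 262 and 263 CPM (4.05 ± 0.54, edgeR adjusted p = 5.82e-11). Untreated libraries held 10.9 to 27.9 CPM of Cd38 and treated libraries 136 to 300.3 CPM. The stress-induced cytokine gene Gdf15 had no untreated UMI (0) and 14 and 76 treated UMIs (108 and 90.2 CPM), at least 11.2-fold higher.

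Lipid-handling genes and targets of the sterol-sensing receptor LXR held 6 that rose and 0 that fell among 18 tested, with a median of 0.71. Nr1h3 (chromosome 2, 91184061 to 91202834) encodes LXR alpha itself; it went from 13.8 to 338 and 204 CPM (4.24 ± 0.56, edgeR adjusted p = 4.88e-11). Its untreated libraries (8.90 to 27.9 CPM) lay below all treated libraries (112 to 492 CPM). Lpl (chromosome 8, 68880491 to 68907448), for lipoprotein lipase, went from 16.5 to 446 and 239 CPM (4.30 ± 0.54, edgeR adjusted p = 1.99e-12), again without overlap (0 to 27.9 against 192 to 575 CPM). Plin2, which coats lipid droplets, rose by 1.49 ± 0.34 and the lysosomal lipase gene Lipa by 1.41 ± 0.43. The acid phosphatase gene Acp5 rose by 1.36 ± 0.35 and the tetraspanin gene Cd9 by 1.31 ± 0.41. Acp5 and Cd9 were members of the list but do not themselves encode lipid-handling proteins. Apoe and Abca1, well-known LXR targets, did not pass: Apoe was at -0.56 ± 0.35 (edgeR adjusted p = 0.53) and Abca1 at 0.53 ± 0.38 (0.607).

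**Figure D3:**
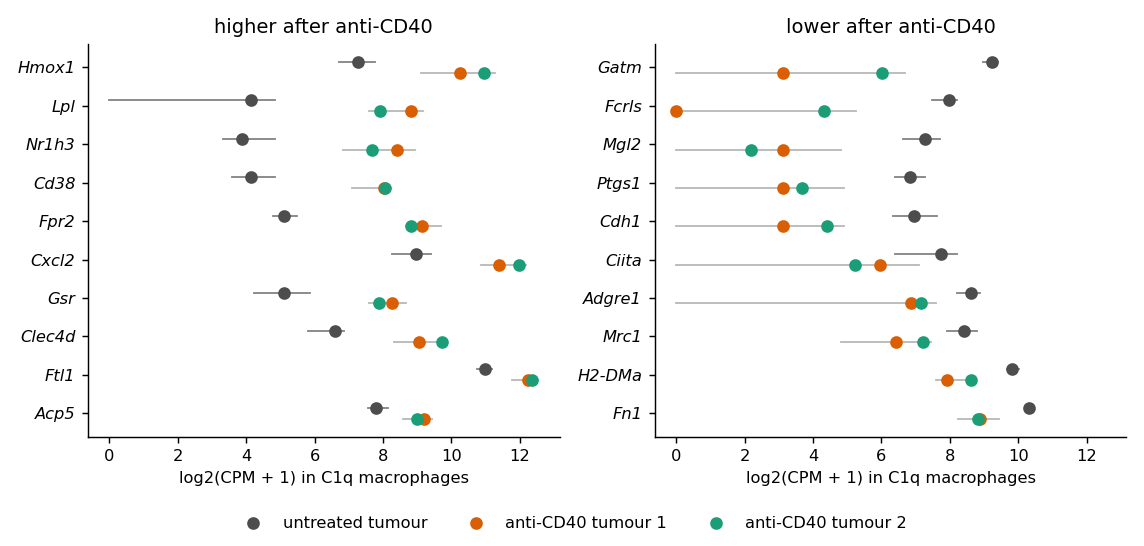
Levels of 20 genes in C1q macrophages on the log2(CPM + 1) scale; points are tumours, and horizontal lines span the 4 untreated libraries or the 8 treated libraries. For Hmox1, Lpl, Nr1h3, Cd38, Fpr2 and Cxcl2 all treated libraries lie above all untreated libraries, and for Gatm, Fcrls, Mgl2 and Mrc1 they lie below; those of Ciita overlap.

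Chemokine genes moved in opposite directions. Cxcl2 (chromosome 5, 90903871 to 90905938), which attracts neutrophils, stood at 494 CPM untreated and at 2700 and 4028 CPM treated, and its untreated libraries (306 to 670 CPM) lay below the treated ones (1857 to 4681 CPM). It rose by 2.86 ± 0.39 (edgeR adjusted p = 2.27e-10). Cxcl3 rose by 3.38 ± 0.73 from 3 untreated UMIs, a ratio of summed levels of 11.3 (counting interval 3.75 to 55.9). Cxcl1, of the same family, had 1, 3 and 68 UMIs, a ratio of 26.5 (4.60 to 1060). By contrast Cxcl9 and Cxcl10, which attract activated T cells, fell: Cxcl9 went from 436 to 38.5 and 220 CPM (-1.33 ± 0.35) and Cxcl10 from 438 to 138 and 214 CPM (-1.13 ± 0.34). Libraries of both overlapped between treated and untreated, and exons of Cxcl10 overlap Art3 on the other strand. In all, 3 of 8 CXC chemokine genes tested rose and 2 fell.

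Among 10 CC chemokine genes tested, Ccl9 rose, from 240 to 900 and 558 CPM (1.61 ± 0.35). Ccl24, an eosinophil attractant, had 22 UMIs in the untreated tumour and 0 in both treated tumours, at least 19.7-fold lower. Ccl8 fell from 110 to 23.1 and 28.5 CPM (-1.88 ± 0.50). These 3 were the CC chemokine calls, 1 higher and 2 lower.

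Genes of NF-kB signalling and its feedback held 9 that rose and 0 that fell among 28 tested, with a median of 0.72. Nfkbia, the inhibitor that NF-kB itself induces, went from 860 to 1369 and 2403 CPM (1.24 ± 0.35), Tnfaip3 from 63.4 to 84.6 and 277 CPM (1.82 ± 0.43) and Sod2 from 154 to 500.0 and 395 CPM (1.57 ± 0.38). Tnf went from 55.2 to 69.2 and 165 CPM (1.41 ± 0.44, edgeR adjusted p = 0.0459), with the higher treated level in tumour 2. The cyclooxygenase gene Ptgs2 rose by 1.23 ± 0.36. The lectin receptor gene Clec4e went from 66.2 to 262 and 337 CPM (2.30 ± 0.42). The remaining calls were Cxcl1, Cxcl2 and Cxcl3. Il1b, the gene of interleukin-1 beta, stood at 2788, 3769 and 3309 CPM and did not pass (0.40 ± 0.35, edgeR adjusted p = 0.695).

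Cd40, the gene of the targeted receptor, stood at 63.4, 61.5 and 40.3 CPM in C1q macrophages and did not pass (-0.39 ± 0.51, edgeR adjusted p = 0.824). Other costimulation and checkpoint genes did not pass either: edgeR called 0 of 15 tested, and 0 had an unadjusted p below 0.05.

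Other genes that rose included Fpr2 (chromosome 17, 17887824 to 17893952), a receptor of formyl peptides, from 33.1 to 561 and 451 CPM (3.96 ± 0.47); its exons overlap Fpr3. Cebpb, a transcription factor of inflammatory macrophages, went from 568 to 2315 and 2289 CPM (2.08 ± 0.37), and its exons overlap Tmem189 on the other strand. Thbs1, for the matrix protein thrombospondin-1, went from 306 to 1177 and 992 CPM (1.87 ± 0.35); without cells carrying markers of a second cell type it was at 1.13 and did not pass (0.081). Lyz2, the macrophage lysozyme, went from 4010 to 10115 and 9895 CPM (1.38 ± 0.39). Untreated libraries lay below treated libraries for all 4 genes. Nos2, for inducible nitric oxide synthase, went from 46.9 to 76.9 and 243 CPM (2.09 ± 0.45), with overlapping libraries.

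Rises from few untreated UMIs rest on counting. From 0 untreated UMIs, Cdc42ep2 was at least 5.72-fold and Nectin1 at least 3.98-fold higher. From 1 untreated UMI the ratio of summed levels was 25.4 (4.40 to 1016) for Hspb1, 21.2 (3.66 to 854) for Rbpms and for Gab1, 17.1 (2.93 to 692) for Golph3l, 16.0 (2.73 to 648) for Eepd1 and 13.8 (2.33 to 559) for Rhov. Hcar2, a receptor of hydroxy acids, had 2, 2 and 103 UMIs, a ratio of 19.6 (5.28 to 164). Nearly all UMIs of Hcar2 came from anti-CD40 tumour 2.

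Heat shock genes held 3 that rose and 0 that fell among 11 tested, Hspa1a, Hspa1b and Hspb1, with a median of 0.58. Hspa1a and Hspa1b encode near-identical inducible HSP70 chaperones, so reads may be split between them and each count is uncertain; exons of Hspa1a also overlap Gm20481 on the other strand. Hspa1a stood at 138, 900 and 508 CPM (2.35 ± 0.37, edgeR adjusted p = 1.45e-07) and Hspa1b at 108, 569 and 437 CPM (2.26 ± 0.39). The untreated libraries of Hspa1a (97.6 to 169 CPM) lay below its treated libraries (345 to 1770 CPM), and those of Hspa1b overlapped. The 2 promoters are shown because the genes rose together: the windows of 250 bases before the RefSeq start sites (GRCm38.p6, minus strand; chr17:34972157-34972406 for Hspa1a and chr17:34959239-34959488 for Hspa1b) were identical at 247 of 250 positions. Capitals mark the match to GAANNTTC, the core of the heat shock factor motif, searched on both strands; each window held 1 match, at 104 bases before the start. The same letters were found in 2199 of 32851 promoter windows of this length (6.69%), and a match is not evidence of binding.
Hspa1a: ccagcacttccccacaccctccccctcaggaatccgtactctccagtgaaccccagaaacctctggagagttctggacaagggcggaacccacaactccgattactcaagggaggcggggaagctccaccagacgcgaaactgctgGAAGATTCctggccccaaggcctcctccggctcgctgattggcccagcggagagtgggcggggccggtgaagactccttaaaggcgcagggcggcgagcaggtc
Hspa1b: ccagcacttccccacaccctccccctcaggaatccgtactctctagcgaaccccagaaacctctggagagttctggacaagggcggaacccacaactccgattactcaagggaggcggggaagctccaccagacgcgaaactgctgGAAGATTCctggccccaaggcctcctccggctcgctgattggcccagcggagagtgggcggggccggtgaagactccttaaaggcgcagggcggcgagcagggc

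Of the immediate early genes, which cells switch on within minutes of a stimulus, 5 rose and 0 fell among 21 tested (median 0.59): Fos (1.13 ± 0.35), Dusp1 (1.38 ± 0.35; exons overlapping Ergic1 on the other strand), Klf2 (1.24 ± 0.36), Klf6 (1.29 ± 0.34) and Maff (3.54 ± 0.62). Of 24 genes of glycolysis and hypoxia, 3 rose and 0 fell: the glucose carrier gene Slc2a1 (1.57 ± 0.39), Hilpda (1.75 ± 0.34) and Ndrg1 (1.37 ± 0.41). Mitochondrial transcripts summed to 28701, 16922 and 23702 CPM, and 1 of 13, mt-Nd6, fell (-1.16 ± 0.31); it overlaps mt-Nd5 on the other strand.

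Genes of alternative activation, the state induced by interleukin-4, held 0 that rose and 8 that fell among 20 tested, with a median of -1.12 beside 0.01 over all genes. Gatm (chromosome 2, 122594467 to 122611303), the entry enzyme of creatine synthesis, stood at 596 CPM untreated and at 7.69 and 64.1 CPM treated. Its untreated libraries (502 to 685 CPM) lay above all treated libraries (0 to 103 CPM), and it fell by 3.42 ± 0.37 on the log2 scale (edgeR adjusted p = 9.68e-17). Of C1q macrophages thinned to 300 UMIs, 14.4%, 0% and 1.77% held a Gatm UMI (24.7%, 0.917% and 5.84% before thinning), against 0.806%, 0% and 0% of thinned T cells.

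Mgl2 (chromosome 11, 70130329 to 70137550), which encodes a sugar-binding surface receptor, went from 154 to 7.69 and 3.56 CPM (-5.00 ± 0.63), that is from 56 UMIs to 1 and 3. Mrc1 went from 339 to 84.6 and 147 CPM (-1.30 ± 0.35, edgeR adjusted p = 0.0115), with untreated libraries (240 to 445 CPM) above treated ones (27.3 to 173 CPM). Ptgs1, for cyclooxygenase-1, fell by 3.18 ± 0.54, Cdh1, for E-cadherin, by 2.65 ± 0.51, Ch25h, which makes 25-hydroxycholesterol, by 2.99 ± 0.63 and Socs2 by 2.54 ± 0.52. Ccl24 was the remaining member that fell. Arg1, the best-known gene of this state, did not pass: it stood at 3199, 1977 and 3323 CPM (-0.17 ± 0.33, edgeR adjusted p = 0.895).

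Genes of antigen presentation on MHC class II were below the untreated tumour in both treated tumours for 8 of 8 tested (2331 of 5822 over all genes), and 3 of the 8 fell, with a median of -0.99. Ciita (chromosome 16, 10480059 to 10528418), the transcriptional switch of this gene group, went from 215 to 61.5 and 36.8 CPM (-2.24 ± 0.40, edgeR adjusted p = 7.15e-06). Its exons overlap Dexi on the other strand and its libraries overlapped between treated and untreated. H2-DMa, whose product loads peptides, went from 894 to 238 and 392 CPM (-1.34 ± 0.30), with untreated libraries (817 to 1032 CPM) above treated ones (191 to 420.1 CPM); its exons overlap Brd2 on the other strand. Its partner H2-DMb1 fell by 1.10 ± 0.31. The presenting chains and the invariant chain did not pass: H2-Aa was at -0.23 ± 0.35, H2-Ab1 at -0.87 ± 0.32 and Cd74 at -0.43 ± 0.35. Of C1q macrophages thinned to 300 UMIs, 69.7%, 64.4% and 66.7% held a Cd74 UMI (76.2%, 85.3% and 79.8% before thinning), against 11.3%, 8.51% and 5.51% of thinned T cells.

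Genes induced by interferon gamma held 1 that rose and 5 that fell among 24 tested, with a median of -0.59; 19 of the 24 were below the untreated tumour in both treated tumours, again beside 2331 of 5822 over all genes. Nos2 rose, and Ciita, Cxcl9, Cxcl10, Irf8 and Iigp1 fell. The transcription factor gene Irf8 went from 626 to 285 and 236 CPM (-1.22 ± 0.33), and Iigp1, an immunity-related GTPase, from 273 to 23.1 and 113 CPM (-1.52 ± 0.37). Among 32 genes of the type I interferon response tested, edgeR called 0 in either direction, 2 had an unadjusted p below 0.05, and the median was -0.05.

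**Figure D4:**
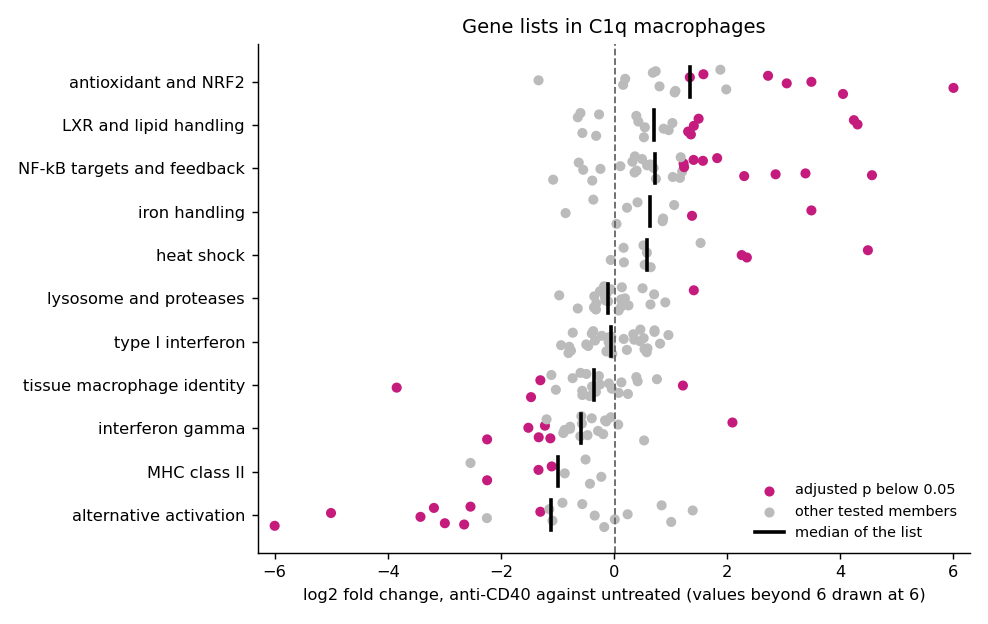
Log2 fold changes with anti-CD40 in C1q macrophages for the tested members of 11 gene lists; each point is a gene, magenta points passed an edgeR adjusted p of 0.05, values beyond 6 in size (Gdf15, Ccl24) are drawn at 6, bars are list medians and the dashed line is the median over all 5822 genes (0.01). The median is 1.34 for the antioxidant and NRF2 list, -1.12 for genes of alternative activation and -0.99 for genes of MHC class II.

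Of the macrophage identity genes, 1 of 24 tested rose (Itgam, whose exons overlap Gm49368) and 3 fell (Mrc1, Fcrls and Adgre1), with a median of -0.36. Fcrls (chromosome 3, 87250758 to 87263738) had 91, 0 and 16 UMIs in the untreated tumour, tumour 1 and tumour 2, which is 251, 0 and 19.0 CPM, a fall of 3.84 ± 0.45 on the log2 scale. Adgre1 went from 394 to 115 and 141 CPM (-1.47 ± 0.35). Ms4a7 was at 477, 108 and 309 CPM; its untreated libraries (427 to 546 CPM) lay above its treated libraries (45.4 to 354 CPM), yet it did not pass (-0.91 ± 0.33, edgeR adjusted p = 0.12). Receptors and bridges of dead-cell uptake gave 0 edgeR calls of 13 tested (3 at an unadjusted p below 0.05; median 0.05). Of 25 lysosomal genes, Lipa alone passed.

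Other genes that fell included Fn1, for fibronectin, from 1280 to 469 and 451 CPM (-1.41 ± 0.30). Further large falls were seen for Dut (-2.73 ± 0.72), Hivep2 (-2.68 ± 0.53), Plk1 (-2.66 ± 0.74), Tasor2 (-2.46 ± 0.71), B3gnt7 (-2.36 ± 0.58) and Ccdc152 (-2.35 ± 0.53), whose exons overlap Selenop on the other strand. The cyclin genes Ccnd1 and Ccnd2 fell by 2.00 ± 0.38 and 1.70 ± 0.34, and exons of Ccnd1 overlap LTO1 on the other strand. Of the 19 genes tested from the cell cycle list, edgeR called 0, 7 had an unadjusted p below 0.05, and the median was -1.02. That list did not hold the cell cycle genes Ccnd1, Ccnd2, Plk1 and Dut, which fell.

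Markers of other cells moved with these results. Of 14 monocyte markers tested in C1q macrophages, 4 rose (Hp, Ifitm6, S100a4 and F13a1) and 1 fell (Fn1), with a median of 0.94, while Ly6c2 (0.39 ± 0.38) and Plac8 (0.79 ± 0.35) did not pass. The 16 monocyte markers summed to 3516, 4353 and 3700 CPM. Of 10 tested neutrophil markers 4 rose (S100a8, Slpi, G0s2 and Clec4d); the sum of all 15 was 596, 1300 and 2127 CPM in C1q macrophages, against 49600, 129260 and 87328 CPM in neutrophils, with 1, 3 and 0 of the 15 at 0. T cell markers summed to 237, 7.69 and 85.4 CPM with 1, 13 and 0 of 14 at 0, and NK cell markers to 240, 69.2 and 99.7 CPM. A fixed cut of 3 UMIs is reached more easily at higher depth, and median depth of C1q macrophages was 478, 1008 and 990 UMIs. The part of depth in the next shares was not tested. Cells with 3 or more UMIs of neutrophil, T, NK or B cell markers made up 3.91%, 19.3% and 24.2% of C1q macrophages. Clec4d, a lectin receptor gene that macrophages also express, went from 96.5 to 531 and 850 CPM (2.96 ± 0.39) and still rose without those cells (2.29, edgeR adjusted p = 2.6e-05), as did Hmox1 (3.43) and Cxcl2 (2.38); S100a8, Slpi and G0s2 were then too low to be tested.

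The anti-CD40 change was next compared between C1q macrophages and the other MoMacDC cells of the same tumours. Relative to the other cells, Hmox1, S100a4, Ifitm6 and Hp moved upward in C1q macrophages, and Socs2 moved downward. Of 6745 genes tested for this difference, 9 were higher (0.133%) and 4 lower (0.0593%), 13 in all (0.193%; edgeR, with the tumour as a block). Of the 13, 8 also changed within the C1q macrophages. The rest of the 174 were not shown to differ between the 2 sides.

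Hmox1 went from 152 to 1208 and 1965 CPM in C1q macrophages and from 410 to 747 and 1921 CPM in the other cells, a difference of 1.85 ± 0.40 between the log2 changes (edgeR adjusted p = 0.00504). Its level was lower in C1q macrophages than in the other cells of the untreated tumour and similar on both sides in tumour 2. S100a4, for a calcium-binding protein of motile cells, went from 438 to 1023 and 838 CPM in C1q macrophages and from 1640 to 702 and 885 CPM in the other cells (2.19 ± 0.36, edgeR adjusted p = 5.44e-06), higher with treatment on the first side and lower on the second; its exons overlap Gm42674. Ifitm6, a monocyte gene of the interferon-induced transmembrane family, had 2, 11 and 26 UMIs in C1q macrophages (5.52, 84.6 and 30.9 CPM) and stood at 260, 133 and 53.9 CPM in the other cells (4.83 ± 0.79).

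The same pattern of a high untreated level in the other cells held for Hp, the haptoglobin gene (13.8, 108 and 46.3 CPM against 270, 447 and 88.2 CPM; 2.92 ± 0.65), Ifitm2 (312, 623 and 547 against 574, 326 and 379 CPM; 1.67 ± 0.41), Wfdc17 (124, 162 and 133 against 434, 165 and 127 CPM; 1.90 ± 0.44) and Ceacam1 (13.8, 92.3 and 47.5 against 169, 296 and 57.2 CPM; 2.78 ± 0.68). In the other cells, unlike S100a4, Hp and Ceacam1 were above the untreated level in tumour 1 and below it in tumour 2. Rbpms and Nectin1 also moved upward relative to the other cells, from 1 and 0 untreated UMIs in C1q macrophages. Socs2, a brake on cytokine signalling, went from 113 to 23.1 and 16.6 CPM in C1q macrophages and stood at 154, 118 and 212 CPM in the other cells (-2.92 ± 0.55, edgeR adjusted p = 0.000333). Without the other cells that held mature dendritic cell transcripts, the difference for Socs2 was -0.16 and did not pass (0.996). Inpp5b (-3.96 ± 0.98) and Mcm7 (-3.18 ± 0.81) were lower too, as was eYFP, which had 12, 1 and 0 UMIs in C1q macrophages. Without the same cells eYFP was at -1.96 (edgeR adjusted p = 0.996) and Inpp5b at -3.52 (0.485), and Nectin1 (0.0679), Ceacam1 (0.077) and Ifitm2 (0.077) did not pass either.

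This comparison was the least steady. With plain library sizes 0 of the 13 passed (339 genes at an unadjusted p below 0.05, beside 405), and DESeq2 called 0 (30 at an unadjusted p below 0.05). The summed level of the 16 monocyte markers in the other cells differed between tumours, at 9781, 10032 and 4696 CPM. The share of monocytes was not counted, and its part in these differences was not tested.

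**Figure D5:**
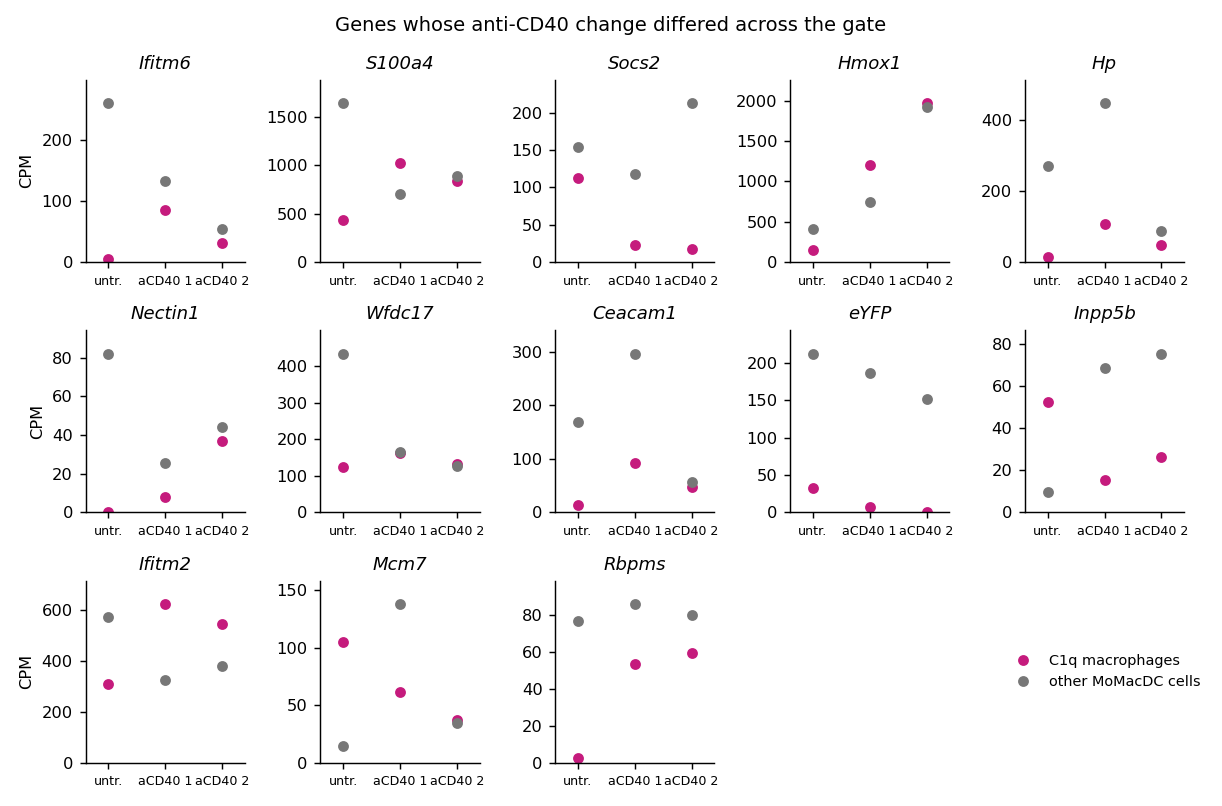
Levels in CPM of the 13 genes whose anti-CD40 change differed between C1q macrophages and the other MoMacDC cells, for the untreated tumour and anti-CD40 tumours 1 and 2, with magenta points for C1q macrophages and grey points for the other cells, on linear axes from 0. S100a4 runs from 438 to 1023 and 838 CPM in C1q macrophages against 1640 to 702 and 885 CPM in the other cells.

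C1q macrophages also varied among themselves. For this, cells were thinned to 300 UMIs, which left out 118, 5 and 20 shallower C1q macrophages and kept 547, 104 and 733; shares are of cells with at least 1 UMI. Apoe was detected in 76.1%, 45.2% and 67.8% of them (85.9%, 62.4% and 82.6% before thinning), against 38.6%, 14.6% and 38.1% of the other MoMacDC cells and 5.65%, 0% and 0.787% of T cells. Arg1, the arginine-degrading enzyme, was detected in 51.01%, 32.7% and 43.8% (61.1%, 37.6% and 55.9% before thinning; T cells 4.84%, 2.13% and 1.57%). Apoe and Arg1 detection was thus lowest in tumour 1, where the Apoe level was lowest too.

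Rarer genes marked a minority of cells at this depth. Mrc1 was detected in 9.69%, 2.88% and 3.55% (14.3%, 8.26% and 11.3% before thinning; T cells 0%, 0% and 0.787%), and Nr1h3 in 0.548%, 11.5% and 3.68% (0.752%, 29.4% and 14.6% before thinning; T cells 0% in each tumour). Cd38 was detected in 0.366%, 2.88% and 6.82% (0.902%, 22.0% and 18.2% before thinning; T cells 0.806%, 0% and 0%). Folr2, a marker of resident macrophages, was found in 0.914%, 0.962% and 0.955% (T cells 0%, 0% and 0.787%, the last from 1 of 127 cells). The proliferation gene Mki67 was found in 0.914%, 0.962% and 0.136%, below the shares in T cells (2.42%, 4.26% and 2.36%).

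Genes of different programmes were found in the same cells. Arg1 and Cd74 were detected together in 197 of 547, 23 of 104 and 201 of 733 thinned cells; a Cd74 UMI was found in 70.6%, 67.6% and 62.6% of cells with Arg1 and in 68.7%, 62.9% and 69.9% of cells without it. Hmox1 and Cxcl2 were detected together in 2, 12 and 116 cells. A Cxcl2 UMI was found in 9.52%, 50.0% and 49.8% of cells with Hmox1, and in 11.6%, 35.0% and 44.0% of cells without it, against 0%, 4.26% and 3.15% of thinned T cells. These shares are descriptions of cells that share a library.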

How the data were processed

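The authors deposited UMI counts (whole numbers, not normalised) for each cell and gene, and a table of cells naming library, animal, condition and major cell type. GRCm38, STAR and bcl2fastq were used, per the submitters' processing notes; the sources used here do not give versions, annotation, counter, strand use or doublet treatment. The animal number gave the tumours. All deposited cells were kept, without a doublet caller.

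C1q macrophages were picked by the stated rule, which uses measured values. These members and the gene lists (579 genes in 41 lists) were chosen with earlier results of these data known. UMIs were summed per tumour and tested with edgeR 4.0.16 in R 4.3.3 (TMM, filterByExpr, robust quasi-likelihood F test, Benjamini-Hochberg over all genes tested, threshold 0.05). Tumours, not cells or libraries, were the replicates. For treatment the fit had 1 residual degree of freedom, for C1q macrophages against other cells 2, and for the difference in change 1; the prior degrees of freedom were infinite for the first and the last and 14.8 for the second. Selection genes stayed in the treatment fit but out of its counts and named genes. Standard errors derive from the F statistic. CPM are UMIs per 1000000 UMIs of the summed cells. Genes are named by a rule: up to 15 called genes per direction with the largest change and the same sign in every tumour, the label's markers, Cd40, and list members of high level or past the threshold. A count of 0 was read as up to 3 counts summed over the group, and ratios from 1 to 3 counts carry exact conditional 95% intervals for counting error. A log2 fold change from so few counts depends on the prior count. Shares carry Clopper-Pearson intervals.

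The scripts were tested on simulated data. Alternatives were the scaling, the filter, DESeq2 1.42.0, other selection limits, thinning to 300 UMIs, leaving out cells with markers of a second type, and leaving out pools or tumours. Leaving out mature dendritic cells was added after seeing the data. Gene positions are GRCm38; promoter windows are RefSeq's.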

Additional observations from a re-analysis of the deposited data

Results flagged for a closer look

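The anti-CD40 change differed between C1q macrophages and the other MoMacDC cells for 13 genes, by the interaction term of the edgeR fit; the values are its adjusted p. For the genes that moved upward in C1q macrophages relative to the other cells, the adjusted p was 5.44e-06 for Ifitm6, 5.44e-06 for S100a4, 0.00504 for Hmox1, 0.00915 for Hp, 0.00959 for Nectin1, 0.0151 for Wfdc17, 0.0329 for Ceacam1, 0.0329 for Ifitm2 and 0.0442 for Rbpms. For those that moved downward it was 0.000333 for Socs2, 0.0329 for eYFP, 0.0329 for Inpp5b and 0.0442 for Mcm7. In cells thinned to 300 UMIs S100a4 passed as well (log2 difference 2.17, adjusted p = 0.00503), and none of the 10 others that were abundant enough to be tested did; Nectin1 and Rbpms were not tested there.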

How the results depend on the processing

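For the anti-CD40 change in C1q macrophages (174 genes), DESeq2 called 17, no filter on low counts 101, a stricter selection (5 UMIs, 1%) 68 and thinning to 300 UMIs 30; leaving out a pool gave 86 to 163, with 86 without pool 2 and 92 without pool 1. Plain library sizes gave 166, but the share of higher calls went from 62.6% to 51.8% and the median of all genes from 0.01 to -0.10. For C1q macrophages against the other cells (154 genes), DESeq2 called 56, no filter 263, the stricter selection 250, a looser one (2 UMIs) 278, thinning 58 and leaving out cells with markers of a second type 243; leaving out a pool or tumour gave 88 to 158, with 88 without tumour 1, 89 without pool 2 and 102 without tumour 2. Leaving out mature dendritic cells, chosen after seeing the data, gave 69. Without the replicate block of the tumour, 15 were called. For the difference in change (13 genes), plain library sizes and DESeq2 called 0 each, no filter 3, the stricter selection 4, the looser one 25, thinning 1 and leaving out second-type cells 36; leaving out a pool gave 2 to 22, 2 without pool 1 or 3 and 22 without pool 4. Over pools the eYFP value ran from -7.28 to 2.89 (adjusted p = 0.927 without pool 1), reversed there; the cause of these changes was not tested.

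The share of C1q macrophages (58.5%, 24.3% and 56.6%) was 41.0%, 10.3% and 38.7% with the stricter selection, 67.5%, 37.3% and 68.6% with the looser one, 55.1%, 17.2% and 44.5% after thinning, and 47.5%, 8.89% and 41.5% of all CD45+ cells. Without second-type cells it was 28.7% in tumour 1, and leaving out a pool gave 55.8% to 62.0% in the untreated tumour.

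No paired analysis was possible for treatment because the conditions share a single replicate number, which does not mark the same animal. The untreated tumour and tumour 1 share pools 1 and 2, whose values are given beside the results, but pools hold parts of the same tumours. Of the values of named genes under alternatives, 321 stayed the same for treatment, 54 no longer passed and 59 moved. All that moved, and part of the 321, came from settings without a test, so those values have no side of the threshold. Without tumour 1, 26 stayed the same and 4 moved, and without tumour 2 it was 13 and 17. Tumour 1 against untreated gave 8 and 22 within pool 1, and 14 and 16 within pool 2. For C1q macrophages against the other cells 389 kept direction and side of the threshold, and 39 no longer passed. For the difference in change 64 kept both, 102 no longer passed and 1 reversed. Leaving out either treated tumour leaves treatment without residual degrees of freedom, as does a comparison within 1 pool, so those values carry no test. With a single untreated tumour, animal and treatment cannot be told apart. The untreated tumour had shallower cells and more C1q transcripts in T cells.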
